A study of Arabidopsis thaliana with 24 samples.

Results

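Transcript levels of 9 genes for brassinosteroid perception and signalling were followed in Arabidopsis seedlings given shade or kept in white light. The genes were taken by locus from the known pathway by a rule that uses no measured values, although earlier results of these data were known when the set was chosen, and are 9 of the 33020 loci measured. They are the receptor genes BRI1 (AT4G39400), BRL1 (AT1G55610) and BRL3 (AT3G13380), the coreceptor gene BAK1 (AT4G33430), the receptor inhibitor gene BKI1 (AT5G42750), the phosphatase gene BSU1 (AT1G03445), the kinase gene BIN2 (AT4G18710), and the transcription factor genes BZR1 (AT1G75080) and BES1 (AT1G19350). RNA came from whole seedlings, 6 days old, of the mutants pif7, asf1ab and hira and of the wild type (WT, Col-0). Seedlings of each genotype were shaded for 1 hr, at a red to far-red ratio (R/FR) of 0.4, or stayed in white light. Each of the 8 combinations has 3 libraries, 24 in all. The sources used here give the mutants by name without an allele. They do not state if replicate libraries stem from different cultures, and the p-values then describe no more than the spread between these samples.

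Brassinosteroids are plant steroid hormones that promote cell expansion. In the known pathway the hormone binds the leucine-rich repeat receptor kinase BRI1, the inhibitor BKI1 leaves the plasma membrane, and BRI1 pairs with the coreceptor kinase BAK1. The signal passes through receptor-like cytoplasmic kinases and the phosphatase BSU1 to inactivate the GSK3-like kinase BIN2, which otherwise phosphorylates BZR1 and BES1 and keeps them from acting in the nucleus. Active BZR1 and BES1 bind DNA together with partners that include phytochrome-interacting factors, induce growth genes, and repress the genes that make the hormone and also BRI1. Much of this control acts on the proteins, which were not measured here. Shade, a low ratio of red to far-red light, inactivates phytochrome B and sets off stem and petiole elongation, in which PIF7 is a main transcription factor. ASF1 and HIRA are histone chaperones.

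The authors' values are FPKM, fragments scaled to transcript length and to sequencing depth, so levels may be compared between genes per length. Summed FPKM was 778266 to 893997 per library. PIF7 averaged 0.653 FPKM in shaded and 1.11 FPKM in white-light pif7, against 12.4 and 27.4 FPKM in WT. ASF1B was also low in its mutant, at 1.82 and 1.87 FPKM in asf1ab, against 10.5 and 9.497 FPKM in WT. ASF1A was lower in white light, at 9.56 FPKM in asf1ab and 12.9 FPKM in WT (adjusted p = 0.00642 by limma), and was not called in shade, at 14.8 and 12.6 FPKM. HIRA was not called in either light, at 4.57 FPKM in shaded and 3.91 FPKM in white-light hira, against 4.84 and 4.88 FPKM in WT, so its level does not check the hira label. Markers fit whole seedlings: all 4 leaf, all 4 vascular and 4 of 5 root markers were above 0 in every library, while the root hair gene RHD6 and the shoot meristem genes CLV3 and WUS were at 0 in some. Ribosomal RNA took 6.27 ± 2.70% of summed FPKM in white-light hira, with its libraries 1 and 2 highest, and 2.11 ± 0.608% in white-light WT (mean ± SD, n = 3 each). These are bulk samples, so fewer cells of a type and less RNA per cell cannot be told apart.

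The 9 genes covered a wide range of levels, as the plot of FPKM by library shows. In white light the order at the top was the same in all 4 genotypes: BES1 was highest, BIN2 next and BRI1 after it, with no overlap of libraries between these neighbours. BES1 averaged 117 ± 7.72, BIN2 76.8 ± 2.52 and BRI1 31.9 ± 2.49 FPKM in white-light WT (SD, n = 3). Below them came BAK1, BZR1 and BKI1, at 22.7 ± 4.15, 16.2 ± 0.910 and 11.4 ± 2.04 FPKM in white-light WT, and in white light BAK1 and BZR1 overlapped in asf1ab and hira but not in pif7 or WT. The other receptor genes were far lower, with BRL3 at 3.01 ± 0.505 and BRL1 at 0.960 ± 0.0854 FPKM, and BSU1 was lowest at 0.400 ± 0.0794 FPKM in white-light WT. In shade the top of the order was no longer the same in every genotype. In shaded pif7 the order was BIN2, BES1 and BRI1, with no overlap between neighbours. BRI1, BIN2 and BES1 overlapped in shaded asf1ab and shaded hira. In shaded WT, BRI1 and BIN2 overlapped at 101 ± 4.82 and 94.9 ± 3.08 FPKM, and both lay above BES1 at 82.2 ± 4.69 FPKM.

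**Figure D1:**
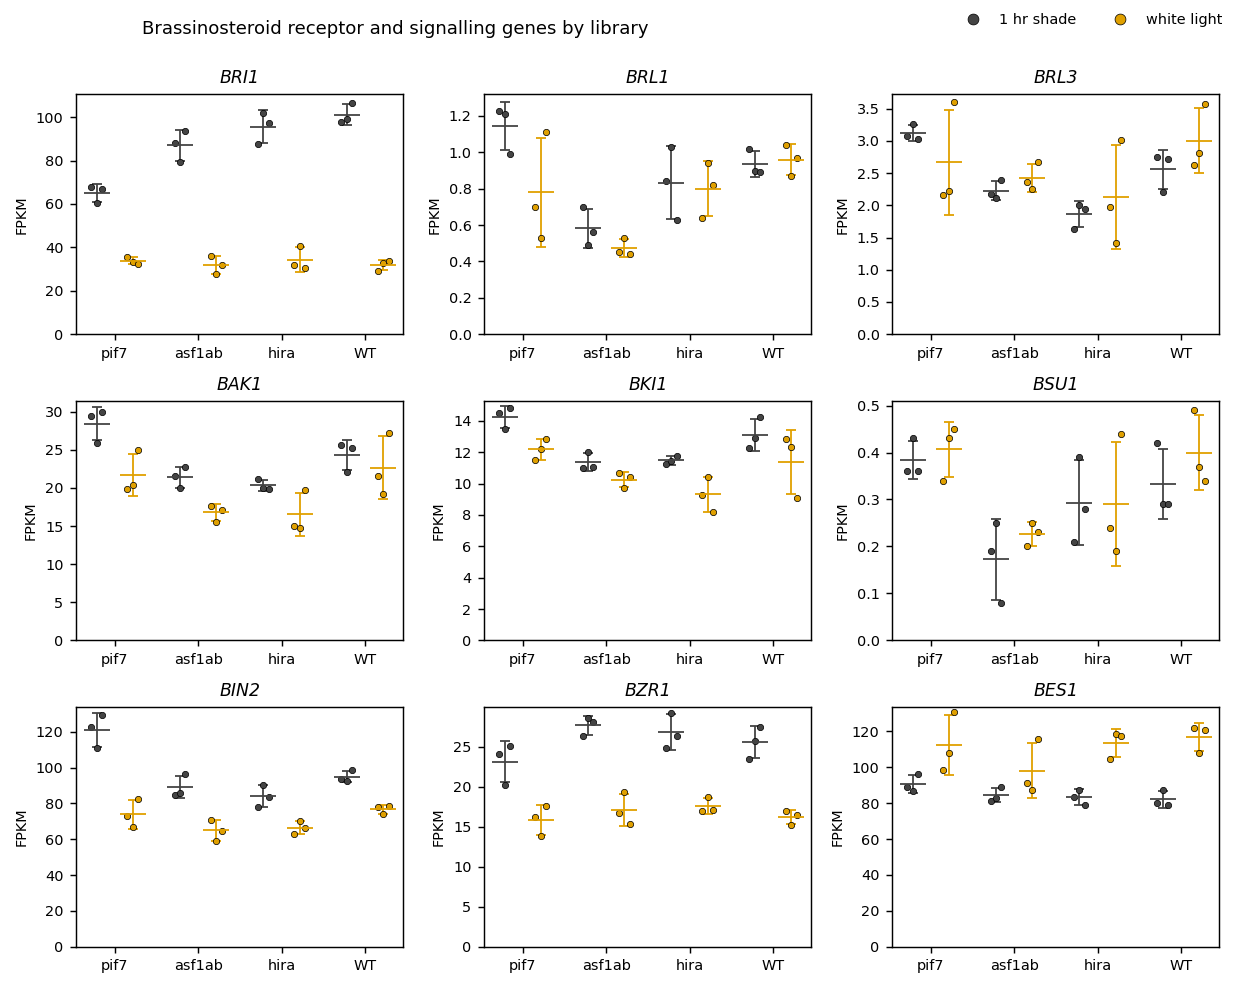
Each panel plots 1 of the 9 genes in FPKM (linear axis from 0), with a point per library, and the mean and SD of 3 libraries for shaded (dark) and white-light (gold) seedlings of pif7, asf1ab, hira and WT. BRI1 in shade is lowest in pif7 at 68.0, 60.5 and 67.0 FPKM, BIN2 is highest in shaded pif7, and BES1 lies lower in shade than in white light in pif7, hira and WT.

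Of the 9 genes, 7 reached a mean of 1 FPKM over the 24 libraries and were tested with limma on log2(FPKM + 1). BRL1, with a mean of 0.814 FPKM, and BSU1, with 0.313 FPKM, did not and are described by their values. Fold changes below are on the log2(FPKM + 1) scale with their standard errors, and a gene is called changed at an adjusted p (Benjamini-Hochberg over all 19126 genes tested) below 0.05. Values within 1 standard error of 0 are given no direction. Shade changed 5 of the 7 tested genes in pif7, 4 higher (BRI1, BAK1, BIN2, BZR1) and 1 lower (BES1), where 43.5% of all genes tested were called. It changed 4 of 7 in asf1ab, all higher (BRI1, BAK1, BIN2, BZR1), with 31.1% of all genes called. It changed 5 of 7 in hira, 4 higher (BRI1, BKI1, BIN2, BZR1) and 1 lower (BES1), with 35.6% called. In WT it changed 4 of 7, 3 higher (BRI1, BIN2, BZR1) and 1 lower (BES1), with 26.4% called. Called higher were 29.9% of all genes in pif7, 18.8% in asf1ab, 26% in hira and 14.9% in WT. Called lower were 13.6% in pif7, 12.3% in asf1ab, 9.55% in hira and 11.4% in WT. Of all genes called, those higher in shade made up 68.8% in pif7 and 73.2% in hira, and after rescaling of the libraries 50.1% and 49.6%. The 7 genes were picked for their roles and are too few to call their share different from these. The median log2 change of all genes in shade was 0.12 in pif7, 0.05 in asf1ab, 0.14 in hira and 0.01 in WT. Values after rescaling each library by the median of ratios, which takes most of this shift out, are given where they change a call.

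BRI1, the main receptor gene, rose in shade in every genotype, with no overlap of the lights in any. In the pif7 mutant it had 68.0, 60.5 and 67.0 FPKM in shaded pif7 seedlings, against 35.5, 33.4 and 32.5 FPKM in white-light pif7 seedlings. The ratio of means was 1.93, with a log2 change of 0.93 ± 0.107 (adjusted p = 1.96e-06). In the histone chaperone mutants every shaded library lay above those of shaded pif7. BRI1 had 87.9, 79.2 and 93.7 FPKM in shaded asf1ab seedlings, against 36.0, 27.8 and 32.1 FPKM in white-light asf1ab seedlings. That is 2.72-fold, a log2 change of 1.42 ± 0.107 (adjusted p = 4.28e-09). It had 87.5, 102 and 97.3 FPKM in shaded hira seedlings, against 31.9, 40.8 and 30.4 FPKM in white-light hira seedlings. The hira means differed 2.78-fold, a log2 change of 1.46 ± 0.107 (adjusted p = 3.89e-09). The highest library of all was a shaded WT one, and BRI1 had 97.6, 99.1 and 107 FPKM in shaded WT seedlings, against 29.1, 32.6 and 33.9 FPKM in white-light WT seedlings. The ratio of WT means was 3.17, the log2 change was 1.64 ± 0.107 (adjusted p = 7.63e-10), and by log2 change BRI1 ranked 218 from the highest of 19126 genes in WT.

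White-light BRI1 levels of pif7 and WT overlapped, at means of 33.8 ± 1.55 and 31.9 ± 2.49 FPKM. In shade every pif7 library lay below every WT library (log2 difference -0.63 ± 0.107, adjusted p = 0.000688). The shade response of pif7 was smaller than that of WT, with a log2 difference of -0.71 ± 0.151 (adjusted p = 0.00917). BRI1 was the only member called in that comparison, 1 of 7, where 6.1% of all genes were called. The response of asf1ab differed from that of WT by -0.22 ± 0.151 (adjusted p = 0.749) and that of hira by -0.18 ± 0.151 (adjusted p = 0.552), neither called. No member was called in the comparisons of these responses, which called 0.46% of all genes for asf1ab and 1.29% for hira. By limma 0 of 7 members had an unadjusted p under 0.05 for asf1ab and 0 of 7 for hira. The 3 comparisons of response share the WT libraries. In shade every asf1ab library also had less BRI1 than every WT library, a log2 difference of -0.22 ± 0.107 (adjusted p = 0.148) that was not called.

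**Figure D2:**
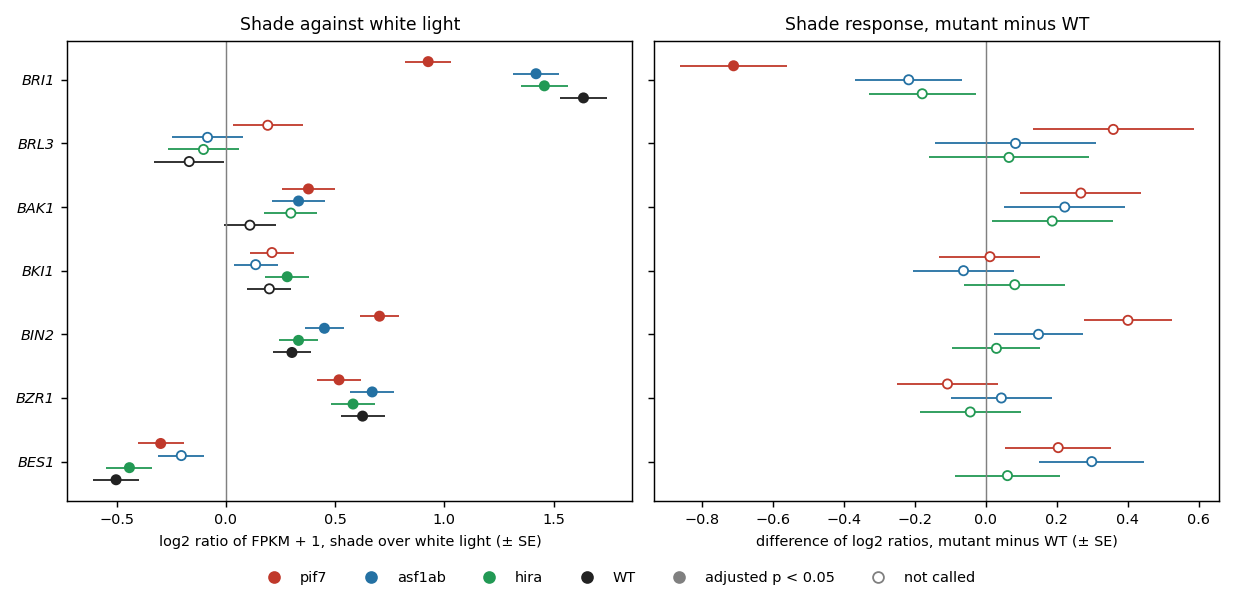
Left, log2 change of FPKM + 1 in shade against white light (horizontal axis) for the 7 tested genes in pif7, asf1ab, hira and WT; right, the difference of each mutant's shade change from that of WT. Bars are standard errors and filled points have an adjusted p below 0.05. BRI1 lies at 0.93 in pif7 and 1.64 in WT on the left, and is the only filled point on the right, at -0.71 for pif7.

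The related genes BRL1 and BRL3, known from vascular tissue, also encode receptors that bind the hormone, and neither was called in shade in WT, BRL1 in a fit without a minimum level. BRL3 had 2.75, 2.20 and 2.72 FPKM in shaded WT seedlings, against 2.63, 2.81 and 3.58 FPKM in white-light WT seedlings, and these overlap. Its log2 change was 0.19 ± 0.160 in pif7 (adjusted p = 0.353) and -0.17 ± 0.160 in WT (adjusted p = 0.491), neither called, and it lay within 1 standard error of 0 in asf1ab and hira. In shade every pif7 library, at 3.08, 3.26 and 3.03 FPKM, lay above every WT library, and every hira library, at 1.63, 2.01 and 1.95 FPKM, lay below them. Neither difference was called, at 0.22 ± 0.160 for pif7 (adjusted p = 0.371) and -0.31 ± 0.160 for hira (adjusted p = 0.215). In white light the hira difference of -0.38 ± 0.160 (adjusted p = 0.126) was not called. Without white-light hira replicate 3 it was called, at -0.57 (adjusted p = 0.0133), and with that replicate alone for the group it was 0.00857.

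BRL1 had 1.02, 0.90 and 0.89 FPKM in shaded WT seedlings, against 1.04, 0.87 and 0.97 FPKM in white-light WT seedlings. It was lowest in asf1ab, at 0.70, 0.49 and 0.56 FPKM in shade and 0.45, 0.53 and 0.44 FPKM in white light. In either light every asf1ab library was below every WT library. When all genes were fitted without a minimum level, BRL1 was lower in asf1ab than in WT in white light by a log2 difference of -0.41 ± 0.103 (adjusted p = 0.00970), in a comparison that called 16.9% of the 26975 loci above 0 in any library. The difference in shade, -0.29 ± 0.103 (adjusted p = 0.0555), was not called, where 18.7% of loci were. In that fit shade raised BRL1 in pif7 by 0.28 ± 0.103 (adjusted p = 0.0470), where 30.7% of loci were called. Its level in pif7 was 1.23, 1.21 and 0.99 FPKM in shade and 0.70, 0.53 and 1.11 FPKM in white light, which overlap. These levels rest on roughly 27 to 87 reads a library, as far as depth could be read from the spacing of low values. The 4 vascular markers summed to 38.9 to 48.7 FPKM in white-light asf1ab and 56.1 to 67.4 FPKM in white-light WT, and to 55.2 to 58.2 FPKM in shaded asf1ab and 61.3 to 73.3 FPKM in shaded WT. Most of that sum is SUC2, while PXY was called in neither light, at 7.15 and 6.47 FPKM in shaded and white-light asf1ab and 5.72 and 6.16 FPKM in WT. The 5 root markers summed to 28.8 to 38.7 FPKM in shaded asf1ab and 49.9 to 53.5 FPKM in shaded WT, and to 42.0 to 46.9 and 56.0 to 64.4 FPKM in white light, although SCR was called higher in white-light asf1ab. The meristem gene STM was called lower in asf1ab in both lights, at 1.51 and 1.35 FPKM against 3.36 and 3.59 FPKM in WT, with WUS at 0 in some libraries of these groups and CLV3 in some of all but white-light asf1ab. The 4 leaf markers summed higher, to 21777 to 24402 FPKM in shaded asf1ab and 19119 to 21391 FPKM in shaded WT, and to 26087 to 28835 and 20635 to 23189.6 FPKM in white light. Only some markers of each list were called between asf1ab and WT. Of the 4 vascular markers 1 was lower in shade and 1 in white light, with 0 in white light after rescaling. Of 4 root markers tested, 2 were lower in each light and 1 was higher in white light. Of the 4 leaf markers 1 was higher in shade and 2 in white light. These comparisons called 25% of all genes in shade and 22.1% in white light. The part of these markers in the asf1ab differences of BRL1, BSU1 and BAK1 was not tested. The share of BRI1 in the summed FPKM of the 3 receptor genes was 96.7 ± 0.349% in shaded WT and 88.9 ± 0.860% in white-light WT (SD, n = 3 each).

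BAK1 encodes the coreceptor kinase shared by brassinosteroid and immune receptors. It was called higher in shade in pif7 and asf1ab, with calls that did not hold under several alternatives. In pif7 it had 29.4, 25.95 and 30.0 FPKM in shaded pif7 seedlings, against 19.8, 20.4 and 24.9 FPKM in white-light pif7 seedlings, which do not overlap, a log2 change of 0.38 ± 0.121 (adjusted p = 0.0169). The pif7 call was lost after rescaling, at 0.25 ± 0.108 (adjusted p = 0.0759), and without shaded replicate 1 or 3 or white-light replicate 1 or 2 of pif7 (adjusted p = 0.0580 to 0.0773). In asf1ab it had 21.5, 19.96 and 22.8 FPKM in shaded asf1ab seedlings, against 17.7, 15.5 and 17.2 FPKM in white-light asf1ab seedlings, which do not overlap, a log2 change of 0.33 ± 0.121 (adjusted p = 0.0423). The asf1ab call was lost after rescaling (adjusted p = 0.0629), without a minimum level (adjusted p = 0.0563), and without shaded replicate 1 or 3 or any 1 of the white-light replicates of asf1ab (adjusted p = 0.0530 to 0.143). In hira BAK1 had 21.2, 20.1 and 19.9 FPKM in shaded hira seedlings, against 15.1, 14.8 and 19.8 FPKM in white-light hira seedlings, which do not overlap either. Its log2 change of 0.30 ± 0.121 (adjusted p = 0.0625) was not called, but was without white-light hira replicate 3 (adjusted p = 0.00985). In WT it had 25.6, 22.1 and 25.2 FPKM in shaded WT seedlings, against 21.5, 19.2 and 27.3 FPKM in white-light WT seedlings, and its change was within 1 standard error of 0. White-light WT replicate 3 exceeded all shaded WT libraries.

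BAK1 was also the only tested member called between a mutant and WT in white light. It was lower in asf1ab than in WT by a log2 difference of -0.40 ± 0.121 (adjusted p = 0.0229), the only member called of 7, where 22.1% of all genes were called. It was likewise the only member called in hira, lower with a log2 difference of -0.43 ± 0.121 (adjusted p = 0.0278), where 11.6% of all genes were called. At an unadjusted p under 0.05 limma had 3 members in asf1ab (BAK1, BIN2, BES1) and 4 in hira (BRL3, BAK1, BKI1, BIN2), all lower. The median log2 difference of all genes was also below 0 in these comparisons, at -0.067 in asf1ab and -0.117 in hira. After rescaling only BAK1 stayed under that threshold in asf1ab. In hira BAK1 stayed under it, while BRL3, BKI1 and BIN2 did not. BZR1 then came under it in hira, higher by 0.23 ± 0.0951, and was not called. Both comparisons share the white-light WT libraries, of which replicate 3 had the highest BAK1 level. Without it the difference was -0.26 in asf1ab (adjusted p = 0.138) and -0.30 in hira (adjusted p = 0.134), and neither was called. The asf1ab call was also lost without white-light asf1ab replicate 2 (adjusted p = 0.0915) and with these groups fitted alone (adjusted p = 0.115). The hira call was also lost after rescaling (adjusted p = 0.0927), with these groups fitted alone (adjusted p = 0.257), and without white-light hira replicate 1 or 2 or white-light WT replicate 1 (lowest adjusted p = 0.0503). White-light hira replicates 1 and 2, the libraries richest in ribosomal RNA, had the lowest BAK1 levels of all, and with replicate 3 alone for that group the hira difference was -0.18 (adjusted p = 0.759). In white light no member was called between pif7 and WT, a comparison that called 0.397% of all genes. In that pif7 comparison limma gave 0 members an unadjusted p under 0.05.

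BKI1, the gene of the inhibitor that holds BRI1 inactive, ranged from 8.20 to 14.8 FPKM over all libraries. That is 1.81-fold, beside 1.66-fold for BES1 and 2.03-fold for BAK1. Its log2 change in shade was 0.21 ± 0.101 in pif7 (adjusted p = 0.0982), 0.14 ± 0.101 in asf1ab (adjusted p = 0.340) and 0.20 ± 0.101 in WT (adjusted p = 0.162), none of them called. BKI1 overlapped between lights in WT and not in pif7 or asf1ab. In hira it had 11.2, 11.4 and 11.8 FPKM in shaded hira seedlings, against 9.30, 10.5 and 8.20 FPKM in white-light hira seedlings, a rise of 0.28 ± 0.101 (adjusted p = 0.0361). That call was lost after rescaling, at 0.14 ± 0.111 (adjusted p = 0.396). It was also lost with the hira groups fitted alone (adjusted p = 0.0903) and without any 1 of the shaded replicates or white-light replicate 1 or 3 of hira (adjusted p = 0.0641 to 0.153). Against WT in white light BKI1 was called in neither asf1ab (-0.13 ± 0.101, adjusted p = 0.403) nor hira (-0.26 ± 0.101, adjusted p = 0.0989). Without white-light WT replicate 3 both were called, at -0.27 in asf1ab (adjusted p = 0.0399) and -0.40 in hira (adjusted p = 0.00803).

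BSU1, the gene of the founding member of a small phosphatase family that acts on BIN2, was near the limit of detection, at roughly 3 to 22 reads a library. It had 0.19, 0.25 and 0.08 FPKM in shaded asf1ab and 0.20, 0.25 and 0.23 FPKM in white-light asf1ab, all below the WT libraries in the same light. It had 0.42, 0.29 and 0.29 FPKM in shaded WT and 0.49, 0.37 and 0.34 FPKM in white-light WT, which overlap. In the fit without a minimum level BSU1 was called in no comparison, with -0.19 ± 0.0728 (adjusted p = 0.0871) for asf1ab against WT in shade and -0.19 ± 0.0728 (adjusted p = 0.0844) in white light. Its relatives BSL1, BSL2 and BSL3 are far more abundant, at 21.9, 18.9 and 11.5 FPKM in white-light WT.

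BIN2, the kinase gene at the centre of the pathway, rose in shade in all genotypes, and the lights overlapped in none. In pif7 it had 122, 111 and 129 FPKM in shaded pif7 seedlings, against 72.7, 66.6 and 82.6 FPKM in white-light pif7 seedlings, a log2 change of 0.70 ± 0.0879 (adjusted p = 4.95e-06). The log2 change was 0.45 ± 0.0879 in asf1ab (adjusted p = 0.000514) and 0.33 ± 0.0879 in hira (adjusted p = 0.00626). In WT it had 93.8, 92.6 and 98.4 FPKM in shaded WT seedlings, against 77.8, 73.9 and 78.7 FPKM in white-light WT seedlings, a log2 change of 0.30 ± 0.0879 (adjusted p = 0.0145). The WT call was lost without shaded WT replicate 3 or white-light WT replicate 2 (adjusted p = 0.0568 to 0.0610). The hira call was lost after rescaling, at 0.18 ± 0.0893 (adjusted p = 0.151), and with white-light hira replicate 3 alone (adjusted p = 0.0647), while pif7 after rescaling was still called at 0.57 ± 0.0893 (adjusted p = 6.71e-05).

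In shade BIN2 was higher in pif7 than in WT, at 121 ± 9.45 against 94.9 ± 3.08 FPKM (SD, n = 3 each), with every pif7 library above every WT library (log2 difference 0.34 ± 0.0879, adjusted p = 0.0133). With BRI1 it made 2 members called between pif7 and WT in shade, 1 lower and 1 higher, where 16.5% of all genes were called. The BIN2 call was lost after rescaling, at 0.25 ± 0.0893 (adjusted p = 0.0725), and without shaded pif7 replicate 1 or 3 (adjusted p = 0.0535 to 0.0647). The shade response of pif7 differed from that of WT by 0.40 ± 0.124 (adjusted p = 0.0606), which was not called. It was called without white-light pif7 replicate 3, at 0.48 (adjusted p = 0.0158). After rescaling it was 0.29 ± 0.126 (adjusted p = 0.193) and not called. The median of all genes in this comparison was 0.11 before rescaling. No member was called in shade between asf1ab and WT, where 25% of all genes were called, or between hira and WT, where 11.5% were called. In both comparisons 0 members had an unadjusted p under 0.05 in limma. In white light every asf1ab and every hira library had less BIN2 than every WT library. The means were 64.9 ± 5.84 FPKM in asf1ab, 66.4 ± 3.76 FPKM in hira and 76.8 ± 2.52 FPKM in WT. Neither difference was called by limma (adjusted p = 0.0542 and 0.125). That of asf1ab was called without white-light asf1ab replicate 1 (adjusted p = 0.0337) and with the replicate number as a block (adjusted p = 0.0432). After rescaling the asf1ab difference was -0.16 ± 0.0893 (adjusted p = 0.224), and that of hira lay within 1 standard error of 0.

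BZR1 and BES1, close homologues that carry the hormone signal to promoters, moved in opposite directions in shade. BZR1 rose in all 4 genotypes, with no overlap of the lights. The log2 change was 0.52 ± 0.1004 in pif7 (adjusted p = 0.000470), 0.67 ± 0.1004 in asf1ab (adjusted p = 3.27e-05), 0.58 ± 0.1004 in hira (adjusted p = 0.000166) and 0.63 ± 0.1004 in WT (adjusted p = 9.22e-05). It had 24.1, 20.2 and 25.1 FPKM in shaded pif7 seedlings, against 16.2, 13.8 and 17.5 FPKM in white-light pif7 seedlings. In WT it had 23.5, 25.7 and 27.4 FPKM in shaded WT seedlings, against 16.9, 15.2 and 16.5 FPKM in white-light WT seedlings.

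BES1 fell in pif7, hira and WT. In pif7 it had 88.8, 86.7 and 96.2 FPKM in shaded pif7 seedlings, against 98.4, 108 and 131 FPKM in white-light pif7 seedlings, with no overlap, a log2 change of -0.30 ± 0.105 (adjusted p = 0.0279). The pif7 call was lost without shaded replicate 1 or 2 or white-light replicate 3 of pif7 (adjusted p = 0.0780 to 0.158) and with the pif7 groups fitted alone (adjusted p = 0.0857). In hira BES1 had 83.6, 87.5 and 78.7 FPKM in shaded hira seedlings, against 105, 118 and 117 FPKM in white-light hira seedlings, with no overlap, a log2 change of -0.44 ± 0.105 (adjusted p = 0.00289). In WT it had 80.3, 87.5 and 78.7 FPKM in shaded WT seedlings, against 122, 108 and 121 FPKM in white-light WT seedlings. The WT lights did not overlap, the mean was 29.7% lower in shade than in white light, and the log2 change was -0.50 ± 0.105 (adjusted p = 0.00123). In asf1ab BES1 had 81.4, 82.8 and 89.1 FPKM in shaded asf1ab seedlings, against 91.3, 87.4 and 116 FPKM in white-light asf1ab seedlings, which overlap. The asf1ab change of -0.20 ± 0.105 (adjusted p = 0.155) was not called, except after rescaling, at -0.27 ± 0.0970 (adjusted p = 0.0432). The asf1ab response differed from that of WT by 0.30 ± 0.149 (adjusted p = 0.574), so a difference between these genotypes was not shown. The shade calls of BRI1 and BZR1 in all 4 genotypes, and those of BES1 in hira and WT, were kept under every alternative run.

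The balance between members follows from these levels and was computed library by library. The ratio of BES1 to BZR1 was 3.94 ± 0.316 in shaded and 7.11 ± 0.930 in white-light pif7, and 3.05 ± 0.140 in shaded and 5.85 ± 1.55 in white-light asf1ab. It was 3.12 ± 0.220 in shaded and 6.48 ± 0.374 in white-light hira, and 3.23 ± 0.313 in shaded and 7.22 ± 0.103 in white-light WT (SD, n = 3 each). In every genotype all shaded libraries lay below all white-light ones. The exact two-sided permutation test gave p = 0.1 for each, the smallest value that 3 against 3 libraries allow, so no ratio can pass 0.05. BES1 is the more abundant of the pair. Their summed FPKM was 110.0 ± 6.01 in shaded and 131 ± 8.34 in white-light hira, and 108 ± 4.91 in shaded and 133 ± 8.61 in white-light WT, in neither with overlap of the lights (exact p = 0.1 each). The lights overlapped in pif7, at 114 ± 7.17 in shade and 128 ± 17.9 in white light (exact p = 0.2), and in asf1ab, at 112 ± 4.78 and 115 ± 13.6 (exact p = 0.9).

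The ratio of BRI1 to BAK1 was 2.29 ± 0.0496 in shaded pif7 and 4.17 ± 0.339 in shaded WT, and that of BRI1 to its inhibitor gene BKI1 was 4.57 ± 0.107 in shaded pif7 and 7.72 ± 0.236 in shaded WT. For both ratios all 3 shaded pif7 libraries lay below those of shaded WT. In white-light WT they were 1.43 ± 0.239 for BAK1 and 2.89 ± 0.764 for BKI1. The kinase to receptor ratio, BIN2 to BRI1, also separated shaded pif7 from shaded WT. It was 1.80, 1.83 and 1.93 in the shaded pif7 libraries, against 0.962, 0.934 and 0.924 in the shaded WT libraries. In white light the genotypes were closer, at 2.19 ± 0.2996 in pif7 and 2.42 ± 0.221 in WT. Shaded asf1ab, at 1.03 ± 0.0595, and shaded hira, at 0.878 ± 0.0151, were nearer to shaded WT, at 0.940 ± 0.0197, though the libraries of neither overlapped those of WT. A ratio within a library shows that the genes changed unequally, not which of them changed.

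**Figure D3:**
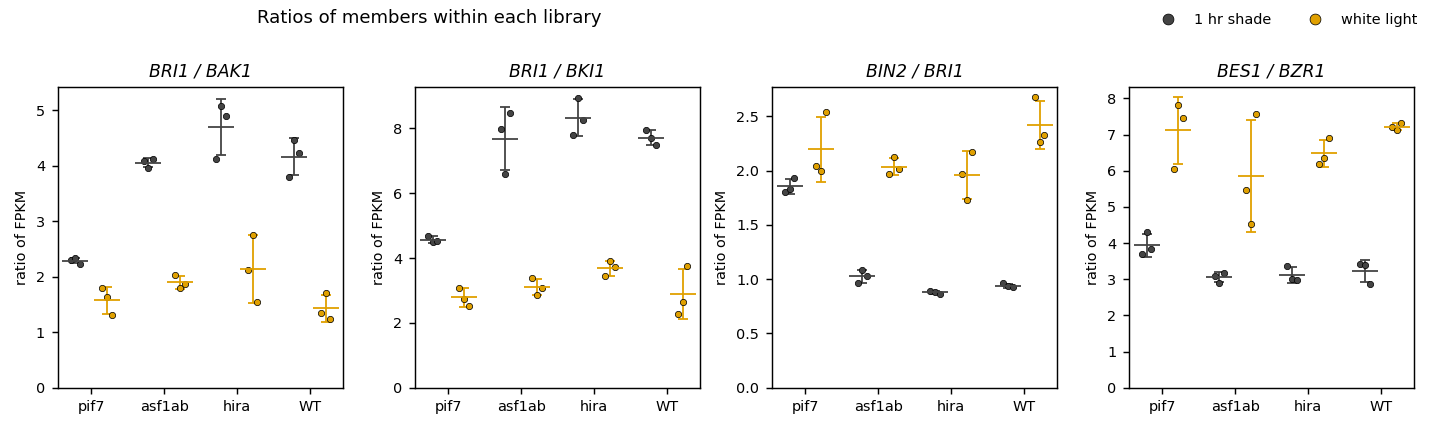
Ratios of FPKM within each library (linear axes) for BRI1 to BAK1, BRI1 to BKI1, BIN2 to BRI1 and BES1 to BZR1, with the mean and SD of 3 libraries for shaded (dark) and white-light (gold) seedlings of pif7, asf1ab, hira and WT. BES1 to BZR1 is lower in shade in all genotypes, and BIN2 to BRI1 is 1.85 ± 0.0677 in shaded pif7 and 0.940 ± 0.0197 in shaded WT.

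The rest of the signalling pathway was counted over a fixed list of 40 genes, of which 36 were tested. Of the 36, shade called 27 higher and 2 lower in pif7 (median 0.47), 21 higher and 1 lower in asf1ab (median 0.38), 19 higher and 0 lower in hira (median 0.38) and 18 higher and 1 lower in WT (median 0.28). The medians are log2 changes, beside medians over all genes of 0.12, 0.05, 0.14 and 0.01 for the same genotypes in the same order. Among all genes tested, shade called 29.9% higher in pif7, 18.8% in asf1ab, 26% in hira and 14.9% in WT. It called 13.6%, 12.3%, 9.55% and 11.4% lower, in the same order. After rescaling the counts among the 36 were 24 higher and 3 lower in pif7, 20 and 2 in asf1ab, 17 and 4 in hira, and 18 and 2 in WT.

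At the membrane, none of the 4 other coreceptor genes of the BAK1 family (SERK1, SERK2, SERK4, SERK5) was called in shade in WT, with 0 at an unadjusted p under 0.05 in limma. In the mutants shade called SERK4 higher in pif7, at 0.53 ± 0.193, and SERK4 and SERK5 higher in asf1ab, at 0.67 ± 0.193 and 0.37 ± 0.105. In hira 0 were called, with 1 at an unadjusted p under 0.05. After rescaling 0 were called in pif7, 2 higher in asf1ab and 1 lower in hira. Of the receptor-like cytoplasmic kinases that pass the signal on, 4 of 9 tested rose in WT: BSK5 by 1.47 ± 0.114, BSK6 by 0.83 ± 0.0906, BSK7 by 0.57 ± 0.0701 and BSK8 by 0.34 ± 0.0871 (log2 change ± SE). BSK5 averaged 8.87 ± 0.941 FPKM in shaded and 5.09 ± 1.20 FPKM in white-light pif7, and 15.5 ± 0.657 FPKM in shaded and 4.93 ± 0.232 FPKM in white-light WT (SD, n = 3 each). Of the BIN2 relatives, 2 of 3 rose in WT. Of the phosphatase genes, all 5 rose in pif7 and 2 of 5 in WT, where 29.9% and 14.9% of all genes were called higher. After rescaling 5 rose in pif7 and 2 in WT. Both 14-3-3 genes listed, GRF6 and GRF8, whose proteins hold phosphorylated BZR1 in the cytoplasm, rose in WT, by 0.45 ± 0.107 and 0.91 ± 0.105.

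At the promoter end, BEH1, BEH2 and BEH4, relatives of BES1, rose in shaded WT by 0.83 ± 0.0926, 1.20 ± 0.0664 and 0.82 ± 0.101. Of the 4 relatives BEH3 fell, as BES1 did, at -0.45 ± 0.162 (adjusted p = 0.0456). All 4 listed partners rose, among them BIM1, a DNA-binding partner of BES1, by 1.5 ± 0.117. BIM1 averaged 49.6 ± 2.51 FPKM in shaded and 25.3 ± 7.13 FPKM in white-light pif7, and 69.7 ± 1.27 and 23.96 ± 0.698 FPKM in WT. In their shade response, 3 of the 36 were called for pif7 against WT, where 6.1% of all genes were called. For pif7 against WT the smaller responses were BSK5 (-0.76 ± 0.161, adjusted p = 0.00880), BSK6 (-0.49 ± 0.128, adjusted p = 0.0300) and BEH2 (-0.37 ± 0.0940, adjusted p = 0.0278). None of the 36 was called for asf1ab or hira, comparisons that called 0.46% and 1.29% of all genes. At an unadjusted p under 0.05 limma had 5 and 6 of the 36 for these mutants. After rescaling the smaller responses numbered 4 for pif7, with BIM1 added, 0 for asf1ab and 2 for hira, which were BEH2 and BIM3. In white light the counts against WT were 0 higher and 0 lower in pif7, 1 and 3 in asf1ab, and 0 and 3 in hira. These comparisons called 0.397%, 22.1% and 11.6% of all genes, in the same order. For pif7 in white light 4 of the 36 had an unadjusted p under 0.05 in limma. After rescaling the white-light counts were 0 higher and 0 lower in pif7, 5 and 3 in asf1ab, and 2 and 0 in hira, where TPL, BIR2 and BSK8 lost their calls and BEH2 and BIM3 were called higher. Without rescaling the counts in shade were 2 and 5 in pif7, 6 and 2 in asf1ab, and 1 and 1 in hira. The shade comparisons called 16.5%, 25% and 11.5% of all genes, in the same order. After rescaling the shade counts were 0 and 6 in pif7, 8 and 2 in asf1ab, and 1 and 1 in hira.

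Textbook target genes were listed as induced or repressed by the hormone, although shade and auxin also act on several of them. Of 9 induced targets 8 were tested, and shade raised all 8 in asf1ab (median log2 change 1.74), hira (median 2.06) and WT (median 2.12). Called higher among all genes were 18.8%, 26% and 14.9% in these genotypes, in the same order. In pif7 6 rose and 2 fell, with a median of 0.62, where 29.9% of all genes were called higher and 13.6% lower. After rescaling 3 of the 8 rose and 2 fell in pif7. Those that fell were PRE1, a growth-promoting helix-loop-helix gene, at -0.81 ± 0.171, and SAUR15, an auxin-responsive growth gene, at -0.77 ± 0.211. In WT the same genes rose, by 1.52 ± 0.171 and 2.19 ± 0.211. Of the 8, 5 had a response called smaller in pif7 than in WT, where 6.1% of all genes were called in either direction. IAA19 (-3.98 ± 0.388), SAUR15 (-2.96 ± 0.298), PRE1 (-2.34 ± 0.242) and BEE1 (-1.73 ± 0.143) showed the 4 largest differences. The BEE1 response was called larger in hira than in WT, at 0.61 ± 0.143 (adjusted p = 0.0415), and after rescaling had 0.50 ± 0.134 (adjusted p = 0.0784).

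The repressed targets are genes of hormone synthesis, and 4 of the 5 listed were tested. None was called lower in shade: 4 rose in pif7, 2 in asf1ab, 3 in hira and 3 in WT. Of all genes 29.9%, 18.8%, 26% and 14.9% were called higher in the same order, and 13.6%, 12.3%, 9.55% and 11.4% lower. At an unadjusted p under 0.05 limma had 0 of the 4 lower in WT and likewise in each mutant. CPD, a cytochrome P450 of the pathway, rose by 1.49 ± 0.101 in pif7 and 1.26 ± 0.101 in WT, and DWF4, which catalyses a rate-limiting step, by 0.56 ± 0.115 and 0.57 ± 0.115. DWF4 was within 1 standard error of 0 in asf1ab. Of the 4, none had a shade response called different from WT in any mutant. Those comparisons called 6.1% of all genes for pif7, 0.46% for asf1ab and 1.29% for hira. At an unadjusted p under 0.05 limma had 1 of the 4 for pif7, 1 for asf1ab and 0 for hira. CPD and DWF4, like BRI1, are known to be repressed by active BZR1, and in WT all 3 transcripts were higher in shade than in white light.

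**Figure D4:**
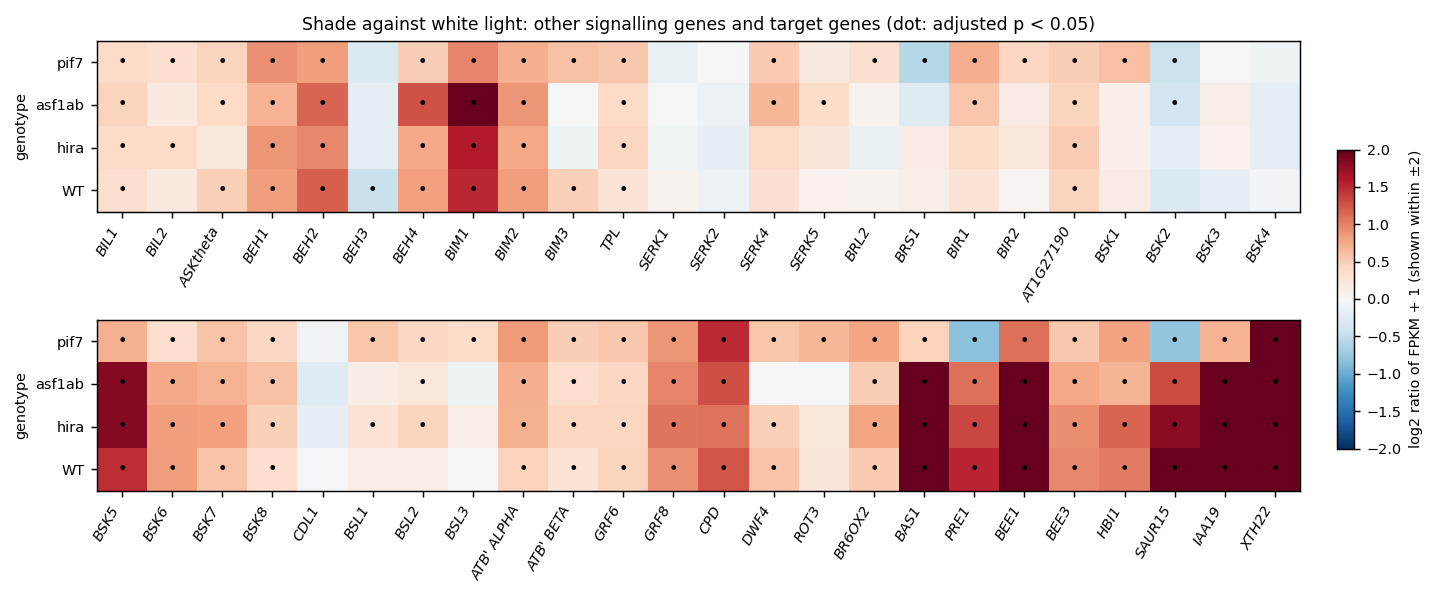
Log2 change of FPKM + 1 in shade against white light (colour, cut at 2 units either way). Columns are the 36 other signalling genes and 12 target genes tested, and rows are pif7, asf1ab, hira and WT, in stacked panels. Dots have an adjusted p below 0.05. The induced targets IAA19, SAUR15 and PRE1 show the clearest contrast between the pif7 row and the others.

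Genes whose levels were most like those of each tested member were found by Pearson's correlation of log2(FPKM + 1) over the 24 libraries, as a description with no test, since all points share the 2 lights and 4 genotypes. BRI1 was closest to PIN3 (r = 0.987), PHYA (r = 0.986) and CSLC04 (r = 0.980). PIN3 encodes an auxin efflux carrier and PHYA the far-red photoreceptor phytochrome A. BIN2 was closest to CDC5 (r = 0.963), RR1 (r = 0.961) and ARI5 (r = 0.959). BZR1 was closest to RALFL22 (r = 0.955), AT1G17620 (r = 0.950) and GBF2 (r = 0.947), and BES1 to TCP2 (r = 0.934), AT4G32600 (r = 0.884) and AT4G02200 (r = 0.882). GBF2 and TCP2 encode transcription factors. BAK1 was closest to RPS4 (r = 0.946), SGT1B (r = 0.929) and AT4G37440 (r = 0.927), among which RPS4 is an immune receptor gene and SGT1B a cochaperone of such receptors. For BKI1 the closest were AT3G52100 (r = 0.896), AT1G34110 (r = 0.890) and MSTRG.13932 (r = 0.879), and for BRL3 Rap2.6L (r = 0.915), UGT76B1 (r = 0.914) and BCB (r = 0.913), with lower correlations than for BRI1.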

How the data were processed

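RNA sequencing of 24 libraries (8 groups of 3) was used as deposited. The values are the authors' FPKM in 1 table of 33020 loci. Per the submitters' processing notes, FastQC, cutadapt, STAR, HTSeq, DESeq2 and the TAIR10 build were used; versions, roles and the way FPKM was derived are not stated in those notes. Depth was estimated from the steps between low FPKM values, at 13360000 to 17650000 reads per library; only 27.3 to 32.3% of the low values used lay within 0.1 of a whole read, so this is a weak estimate. Gene names, exon lengths and loci were matched to the TAIR10.1 annotation, from which no coordinates are given.

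The 9 members, the lists of other pathway genes and targets, the marker lists, the tests and the rule for named genes were chosen with earlier results of these data known. That rule names every member, the genotype genes, the 3 genes most like each tested member by Pearson's correlation, and, per list and contrast, up to 4 called genes, the largest change first. SERK and BSL genes are named as relatives, after their values were seen, and the 5 other receptor-side genes as a full list. Except for BIR3 (AT1G27190) and the locus MSTRG.13932, names not in the annotation are not printed. Genes with a mean of at least 1 FPKM (19126) were tested with limma 3.58.1 in R 4.3.3 on log2(FPKM + 1), with 8 group means over all libraries, moderated variances with a trend, and Benjamini-Hochberg adjustment over all genes tested, called below 0.05. The 13 contrasts are each mutant against WT in white light and in shade, shade against white light in every genotype, and the mutants' shade responses against the WT response. Ratios between members were compared by exact two-sided permutation tests over libraries. Alternatives were a pseudocount of 0.1, no minimum level, rescaling by the median of ratios, only the groups compared, the replicate number as a block, and each library left out in turn; white-light hira by its replicate 3 alone was added after seeing the data. The fit was tested on simulated data. Errors are standard errors of a contrast, or the SD of 3 libraries. Tables and figures used Python 3.11.15, pandas 2.3.3, scipy 1.17.1 and matplotlib 3.10.9.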

Additional observations from a re-analysis of the deposited data

Results flagged for a closer look

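The shade response of BRI1 differed between pif7 and WT, by a log2 difference of -0.711 (adjusted p = 0.00917 by limma over all genes tested), and was looked at again because the difference between the responses itself passed the test. BRI1 was higher in shade in all 3 libraries of either genotype, with means of 65.2 ± 4.08 FPKM in shaded and 33.8 ± 1.55 FPKM in white-light pif7, and 101 ± 4.82 FPKM in shaded and 31.9 ± 2.49 FPKM in white-light WT (SD, n = 3 each). With each of the 12 libraries concerned left out in turn, the difference ranged from -0.76 to -0.65, with adjusted p from 0.00819 to 0.0310.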

How the results depend on the processing

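Among 772 member values under an alternative, 719 kept their direction and their side of the threshold, 40 lost a call, 10 gained one and 3 changed sign. The tally covers 63 member values and leaves out 28 that lay within 1 standard error of 0, for which no direction is reported. For asf1ab against WT in white light, where 1 member was called, the count was 2 without a minimum level, 0 with only the groups compared, 2 with the replicate block, and 0 to 2 with 1 library left out. For hira against WT in white light, also 1, it was 0 after rescaling, 0 with only the groups compared, 0 with white-light hira replicate 3 alone, and 0 to 2 with 1 library left out. For pif7 against WT in shade, 2 members were called, 1 after rescaling, and 1 to 2 with 1 library left out. Shade in hira called 5 members, and 3 after rescaling. Shade in pif7 called 5, and 3 to 4 with 1 library left out, and the pif7 shade response against WT called 1, and 1 to 2. With white-light hira replicate 3 alone, BAK1 in the hira shade response turned to -0.068 and BRL3 in hira against WT in white light to 0.00857. BKI1 in pif7 against WT in white light ranged from -0.042 to 0.19 with 1 library left out. None of these reversed values was called. The cause of these changes was not tested.

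Same-numbered libraries deviated together weakly, with correlations from -0.114 to 0.221, and in no comparison did all 3 pairs exceed 0.1. Of 30 such pairs 10 exceeded 0.1, and 21 exceeded the mean correlation with the other numbers. The numbers were not taken as pairs in the main fit, and a fit with the number as a block was run beside it. In the replicate block fit BIN2 gained a call in asf1ab against WT in white light and BAK1 in hira in shade, and no member lost one. Depth limits BRL1 and BSU1, which were below the minimum level of 1 FPKM.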

Other observations

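Apart from the 9 members, 2 of 5 other receptor-side genes tested (BRL2, BIR2, BRS1, BIR1, BIR3), BRL2 and BIR2, were called lower in asf1ab than in WT in either light, where 25% of all genes were called in shade and 22.1% in white light. BRL2, a vascular relative of BRI1, averaged 3.15 ± 0.401 FPKM in shaded and 2.96 ± 0.328 FPKM in white-light asf1ab, and 5.23 ± 0.447 FPKM in shaded and 4.98 ± 0.685 FPKM in white-light WT (SD, n = 3 each). The log2 difference was -0.59 ± 0.119 in shade (adjusted p = 0.00119) and -0.59 ± 0.119 in white light (adjusted p = 0.00141) by limma. BIR2, which encodes a pseudokinase that binds BAK1, differed by -0.56 ± 0.124 in shade (adjusted p = 0.00235) and -0.67 ± 0.124 in white light (adjusted p = 0.000678). The summed vascular and root markers and STM were also lower in asf1ab in both lights and the summed leaf markers higher, by the values given beside BRL1. Not every marker behind these sums was called, and the part of the markers in these differences was not tested.

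ROT3, a cytochrome P450 gene of brassinosteroid synthesis, averaged 3.35 ± 0.297 FPKM in shaded and 3.46 ± 0.638 FPKM in white-light asf1ab, and 11.1 ± 0.837 FPKM in shaded and 9.26 ± 1.36 FPKM in white-light WT. Its log2 difference was -1.48 ± 0.135 in shade (adjusted p = 2.15e-07) and -1.20 ± 0.135 in white light (adjusted p = 3.33e-06). In hira it was -0.51 ± 0.135 in shade (adjusted p = 0.0202) and -0.49 ± 0.135 in white light (adjusted p = 0.0244), and after rescaling the white-light hira difference was no longer called (adjusted p = 0.0777). The asf1ab and hira differences share the WT libraries. The asf1ab differences named here were also called after rescaling.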
